A study of Mus musculus with 8 samples.

Results

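Sorted haematopoietic stem cells (HSC) of mouse bone marrow were examined one well at a time, in 231 wells of the 417 that the series kept. A well was kept when its barcode belonged to the 96 barcodes of the file with the larger total and held at least 1000 transcripts, spike-ins left out. The 231 wells came from 4 libraries of 96 wells each, with 50 and 46 wells from wild type libraries 1 and 2 and 68 and 67 wells from the libraries 1 and 2 of Mof -/+ mice. Mof is another name of Kat8, a histone lysine acetyltransferase gene, for which Mof -/+ mice are heterozygous. The cells were sorted by surface proteins as lineage-negative Kit+ Sca-1+ cells without CD34, Flt3 and CD48 and with CD150, were frozen, and were read with CEL-Seq2, in which a molecular identifier marks every transcript that was captured. The other 186 wells came from 4 libraries labelled plate2, 2 of each genotype, for which no label says which progenitor gate a well came from. Neither the ages of the mice nor whether the 2 libraries of a group came from different animals are stated in the labels, and the p-values below therefore cover the spread among libraries, which may be technical.

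HSC are the rare cells that renew themselves and give rise to all blood lineages. Most of them rest outside the cell cycle, make protein slowly and rely on a small set of transcription factors and surface receptors that are lost as the cells commit to a lineage. Among the genes used here as their markers, Hlf and Mecom encode transcription factors that maintain the stem cell state, Tie1 and Procr encode surface receptors shared with endothelium, Ly6a encodes the surface protein Sca-1, Ifitm1 encodes an interferon-inducible membrane protein and Ctla2a encodes a protein related to the propeptides of cysteine proteases. Ly6a belongs to the sort gate, so its level is a check and not a finding.

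Depth was low and uneven. Kept wells of wild type libraries added up to 99312 and 103075 transcripts and those of Mof -/+ libraries to 244299 and 200049, and the median well held 1601, 1567, 2923 and 2979 transcripts. The lowest kept wells held 1004, 1012, 1001 and 1029 transcripts, and the highest wells below the limit held 950, 959, 522 and 967. Spike-in transcripts, an added RNA standard, had medians of 136, 130, 232 and 304 per well, against 10.5 to 19 in plate2 wells. The Mof -/+ wells were deeper in cell and spike-in transcripts alike, and a median of 12.8, 14.5, 13 and 9.43 cell transcripts stood against each spike-in transcript. HSC libraries had a median of 2267 ± 790 transcripts per well (mean of 4 library medians ± SD) against 10357 ± 1514 in the plate2 libraries. No test is given for this difference, because wells were kept by the same value: 46, 50, 28 and 29 of the 96 barcodes fell under 1000 transcripts in the HSC libraries and 42 to 55 in the plate2 libraries. With every well thinned to 1000 transcripts the HSC libraries showed 617 ± 28.5 genes per well and the plate2 libraries 609 ± 12.9 (exact permutation p = 0.629). The 2 libraries of a genotype used different sets of 96 barcodes and so could share no kept barcode. Wild type library 1 and Mof -/+ library 1, which used the same set, shared 32 kept barcodes, and the libraries numbered 2 shared 30.

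**Figure D1:**
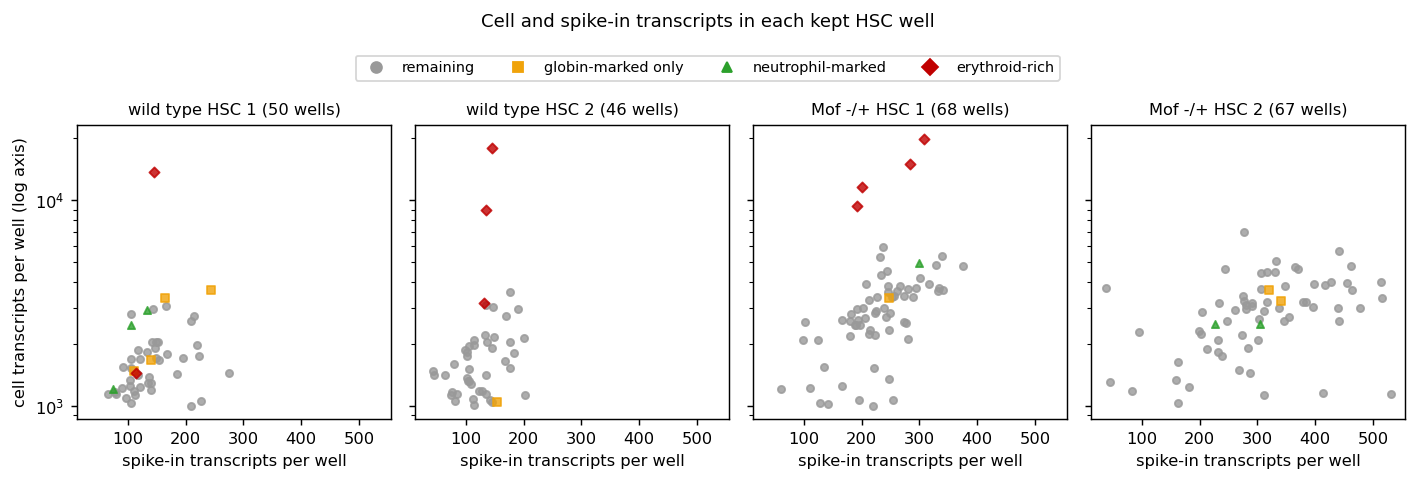
Cell transcripts (log axis) against spike-in transcripts in each of the 231 kept HSC wells, by library. Of the 8 wells above 6000 transcripts, 7 are erythroid-rich wells (red), whose spike-in counts lie among those of the other wells.

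A small number of wells stood apart from the rest. Wells were set aside, by limits chosen after the data were seen, where 12 early erythroid genes made up at least 0.5% of transcripts (9 wells, called erythroid-rich), where mature neutrophil genes reached 10 transcripts (6 wells) or where globin and other late erythroid genes reached 10 transcripts (16 wells). These classes overlapped, and together they held 23 wells, leaving 208 remaining wells (41, 42, 62 and 63 by library). The 23 wells carried 32.1%, 30.3%, 26.3% and 5.93% of all transcripts of the 4 libraries. The nearest well below the erythroid limit, in wild type library 1, held 7 such transcripts among 1482, or 0.472%. Several results that rest on these wells are given with and without them. Others use all wells only, among them the counts of ribosome, respiratory chain and heat shock genes against plate2. Where HSC was compared with plate2 without them, the plate2 libraries kept all their wells.

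The stem cell markers were present in nearly every well. At least 1 transcript of the 7 markers was seen in 229 of 231 wells, and the markers made up a median of 0.476%, 0.617%, 0.445% and 0.439% of a well's transcripts in the 4 libraries. In plate2 wells the median share was 0.0146%, and 3 of 186 plate2 wells reached the median of the remaining HSC wells (0.482%).

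Ifitm1 (chromosome 7, 140967221 to 140969825, plus strand, GRCm38) was the most abundant of the 7 markers in transcript count. Its level was 1692 and 1883 CPM (transcripts scaled so that all libraries have the same sum) in the wild type and 1003 and 1340 CPM in the Mof -/+ HSC libraries, against 176, 350, 153 and 186 CPM in the plate2 libraries. All 4 HSC libraries lay above all plate2 libraries. The log2 difference was 2.55 ± 0.23 (SE, 4 libraries against 4, edgeR adjusted p = 1.63e-07), and 84% to 95.7% of HSC wells held a transcript.

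Ctla2a (chromosome 13, 60934155 to 60936625, minus strand) stood at 856, 1155, 778 and 1045 CPM in the HSC libraries and between 73.7 and 160 CPM in the plate2 libraries, a log2 difference of 3.03 ± 0.23 (edgeR adjusted p = 1.43e-08). It was seen in 64%, 82.6%, 77.9% and 86.6% of wells. Hlf (chromosome 11, 90336536 to 90390895, minus strand) stood at 1048, 835, 696 and 850 CPM against 128 to 314 CPM, a log2 difference of 1.91 ± 0.22 (edgeR adjusted p = 2.52e-06), and was seen in 71.7% to 82.4% of wells. For both genes the HSC and plate2 libraries did not overlap.

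Ly6a, the gate gene, held 302, 340, 352 and 580 CPM in the HSC libraries against 15.3 to 25.1 CPM in plate2. Tie1 held 181, 330, 418 and 345 CPM against 14.7 to 52.4 CPM, with a log2 difference of 3.33 ± 0.29 (edgeR adjusted p = 7.97e-08). Mecom held 171, 107, 188 and 240 CPM against 23.6 to 64.3 CPM (2.08 ± 0.30, edgeR adjusted p = 2.74e-05). These 3 genes were caught in fewer wells, with shares of 36% to 61.2% for Ly6a, 28% to 64.7% for Tie1 and 17.4% to 42.6% for Mecom. Procr, at 29.1 to 75 CPM, was the scarcest. Its counts were 7, 3, 9 and 15 transcripts, in 6.52% to 17.9% of wells, and its call (1.45 ± 0.45, edgeR adjusted p = 0.0168) was lost without wild type HSC library 1 (adjusted p = 0.197) and under other settings.

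The 7 markers include the gate gene Ly6a and were chosen with earlier results of these data known, so their counts are a check. All 7 rose in HSC over plate2 libraries, where 35.8% of the 6678 genes tested passed, 16.3% as rises and 19.5% as falls. All 7 also had every HSC library above every plate2 library, which held for 18.3% of genes. The erythroid-rich wells of the HSC libraries held less of the markers but were not empty of them. In the first 3 libraries they had 66, 298 and 53.7 CPM of Ifitm1 where remaining wells had 2168, 2522 and 1317 CPM, and 0, 0 and 35.8 CPM of Ly6a where remaining wells had 430, 487 and 461 CPM. In the plate2 libraries, where marker RNA was scarce as a whole, 38 wells rich in early erythroid genes, with a median of 24064 transcripts against 2307 in HSC wells, held no transcript of Ly6a, Tie1, Procr or Mecom. There Ifitm1 was found in 21.1%, Ctla2a in 15.8% and Hlf in 10.5%, and after thinning to 1000 transcripts in 2.63%, 0% and 0%. HSC and plate2 libraries differed in sort, plate, depth and spike-in counts at the same time, and these cannot be told apart.

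**Figure D2:**
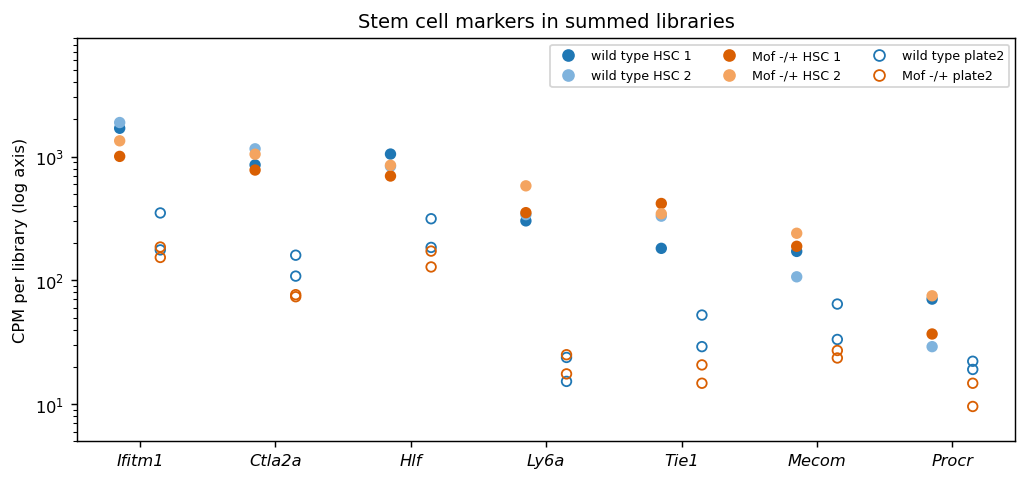
CPM (log axis) of the 7 markers in each of the 4 HSC libraries (filled) and 4 plate2 libraries (open). Every HSC library lies above every plate2 library for all 7 genes, and the gap is narrowest for Procr.

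The gate proteins other than Sca-1 left a mixed trace in RNA. Cd48, whose protein the gate excludes, had no transcript in any HSC library. Slamf1, which encodes CD150, had 0, 7, 9 and 13 transcripts. Kit, the stem cell factor receptor gene, was found in 26%, 30.4%, 51.5% and 65.7% of wells, at 171, 165, 213 and 520 CPM, and did not differ detectably from plate2 (log2 difference -0.45 ± 0.27, edgeR adjusted p = 0.204). RNA of Cd34 was present at 119 to 285 CPM and RNA of Flt3 at 19.4 to 125 CPM, although the gate excludes both proteins. Flt3 was found in 4.35% to 22.4% of wells. Kat8 itself was caught as 1 and 2 transcripts in the wild type and 1 and 2 in the Mof -/+ libraries, so at this depth it cannot check the genotype.

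Other genes known from HSC followed the markers. Of 16 tested genes in that list 13 rose against plate2 and none fell, where 16.3% of all genes rose and 19.5% fell. The list was chosen with earlier results of these data known, so the count is no independent support. Their median log2 difference was 1.15 where the median over all genes was -0.08. Ifitm3, the neighbour of Ifitm1, stood at 665, 776, 651 and 1060 CPM against 129 to 202 CPM (2.03 ± 0.24, edgeR adjusted p = 2.58e-06). Nrgn, which encodes a calmodulin-binding protein, stood at 322, 631, 479 and 470 CPM against 51 to 169 CPM (2.04 ± 0.27, edgeR adjusted p = 1.1e-05). Adgrg1, an adhesion receptor gene, and Txnip, which encodes a thioredoxin-binding regulator of glucose uptake, rose by less, 0.70 ± 0.23 and 0.89 ± 0.24 (edgeR adjusted p = 0.02 and 0.00763).

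Among all genes, the widest rises that were separated between the sets included less familiar names. Adam11, a metalloprotease-like gene, held 101, 116, 61.4 and 40 CPM in the HSC libraries and 0 to 7.15 CPM in plate2. Trp53i11 held 141, 233, 225 and 240 CPM against 9.57 to 27.7 CPM (3.38 ± 0.29, edgeR adjusted p = 8.15e-08). The cytochrome gene Cyp4v3 held 322, 77.6, 139 and 120 CPM against 6.38 to 13.3 CPM, and the natriuretic peptide receptor gene Npr2 90 to 135 CPM against 1.59 to 16.7 CPM. The proton pump subunit gene Atp6v1g2, Ctxn1, Fam214b and the guanylate-binding protein gene Gbp11 complete the list of 10 with Ly6a and Tie1. Fam214b rested on wild type library 1, which held 141 CPM where the others held 9.70 to 70 CPM, and its call was lost without that library (edgeR adjusted p = 0.205).

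Ctsg, Mpo and Elane, genes of granulocyte commitment, were at or near 0 in HSC wells and were also low in 1 of the plate2 libraries. Ctsg, the cathepsin G gene of neutrophil granules, had no transcript in 231 wells and 713 in plate2, at least 62.8-fold lower when the HSC group is set to 3 counts. Mpo, the myeloperoxidase gene, had 0, 1, 0 and 1 transcripts, and Elane, the neutrophil elastase gene, had 0, 1, 0 and 0. Plate2 libraries held 701, 7, 1001 and 768 Mpo transcripts, the low value in wild type plate2 library 2. As a whole the neutrophil progenitor list made up 0.0111%, 0.0175%, 0.0250% and 0.0255% of HSC transcripts against 0.201%, 0.0141%, 0.389% and 0.221% in plate2, so that 1 plate2 library lay below 3 HSC libraries. Single wells carried 49.9% and 52.4% of the list's transcripts in the plate2 libraries numbered 1. F13a1, the coagulation factor XIII gene used as a monocyte marker, and Ms4a3, a granulocyte-monocyte progenitor gene, were also at 0 (at least 17.6-fold and 9.72-fold lower). All 5 tested genes of the neutrophil progenitor list fell, where 19.5% of all genes fell. Among them Prtn3, the proteinase 3 gene, still kept 90.7 to 237 CPM. Several housekeeping genes were likewise among the 10 widest falls, including Rpl27 (0 in all HSC libraries, at least 20.2-fold lower), Rplp2, Sdhd, Snhg6, Eif2s3x and the pseudogene Rps12-ps3. Rpl27, Rplp2 and Rps12-ps3 belong to families with near-identical copies. Whether counting divided reads between the copies, and whether that differed between the sets, was not tested.

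Cell cycle genes were sparse. Of 18 S phase genes 13 fell and none rose against plate2, with a median log2 difference of -1.63. Of 21 tested G2/M genes 11 fell and none rose, with a median of -0.93. Over all genes 19.5% fell. Without the set-aside HSC wells 18 of 18 and 19 of 19 fell, where 23.4% of the 6441 genes tested did. The medians became -2.82 and -2.85. That step took the erythroid-rich wells, which were rich in cell cycle genes, out of HSC alone, while plate2 kept its 38. The sets were thus not treated alike, and the larger fall is no added support. Mki67, the proliferation antigen gene, stood at 212, 223, 487 and 80 CPM in all wells and at 0, 55.7, 94.4 and 53.2 CPM in the remaining wells. Cdk6, a kinase of the G1 phase known to be low in resting HSC, fell by 1.09 on the log2 scale (SE 0.21, edgeR adjusted p = 0.000488), from 739, 676, 847 and 846 CPM in plate2 to 302, 485, 520 and 400 CPM. Without the set-aside wells its log2 difference was -1.07.

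Genes for making ribosomes were lower in HSC. Of 12 ribosome biogenesis genes 9 fell and none rose, where 19.5% of all genes fell, and the list made up 0.368% to 0.504% of HSC and 0.576% to 0.829% of plate2 transcripts. Of 75 tested ribosomal protein genes 45 fell and 6 rose, but their summed share overlapped between the sets, at 9.49% to 11.8% against 8.80% to 13.8%. Npm1, the nucleophosmin gene, stood at 977, 1048, 1511 and 1235 CPM against 1644 to 2718 CPM (-1.06 ± 0.18, edgeR adjusted p = 0.000181). Rps20 went the other way, with a log2 difference of 0.88 ± 0.17 (edgeR adjusted p = 0.000643). Nuclear genes of the respiratory chain fell in 31 of 72 cases and rose in 4, and their summed share also overlapped, at 0.895% to 1.26% in HSC and 0.917% to 1.44% in plate2 libraries. Cox7a2l, a gene of that list, rose from 181 to 211 CPM in plate2 to 896, 1368, 626 and 675 CPM. All 6 tested repeat-like gene models fell, with a median of -2.72, yet their summed share was 4.77%, 4.96%, 2.88% and 4.82% in HSC and 11.1%, 14.7%, 5.76% and 4.12% in plate2 libraries, the last below 3 HSC libraries. Of the heat shock list 9 of 11 fell, Hsp90aa1 among them (-1.03 ± 0.19, edgeR adjusted p = 0.000434).

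Immediate early genes, which respond to stimuli within minutes and can also rise while tissue is being dissociated, were higher in HSC. They made up 0.108%, 0.140%, 0.122% and 0.170% of HSC transcripts and 0.0234% to 0.0550% of plate2 transcripts. Of 10 tested genes 7 rose and none fell, where 16.3% of all genes rose and 19.5% fell. Jund held 272, 592, 278 and 375 CPM against 38.3 to 118 CPM (1.97 ± 0.30, edgeR adjusted p = 5.6e-05). Ier3 held 80.6, 184, 90.1 and 130 CPM against 6.38 to 26.3 CPM (2.70 ± 0.37, edgeR adjusted p = 1.72e-05). Times between dissection, sorting and freezing were not analysed here, and their part in the result was not tested.

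Pkm, the pyruvate kinase gene, rose by 2.01 ± 0.19 (edgeR adjusted p = 2.23e-07), from 196 to 231 CPM in plate2 to 1199, 1262, 827 and 825 CPM. Of the 11 glycolysis genes tested 3 rose and 2 fell, and of 9 interferon-response genes 3 rose and 1 fell, counts to be read beside the 16.3% of rises and 19.5% of falls over all genes. Among the interferon-response genes, Ifit1 stood at 70.5, 58.2, 32.8 and 90 CPM against 5.55 to 8.84 CPM (2.89 ± 0.51, edgeR adjusted p = 0.000262) and Gbp7 at 336 to 728 CPM against 91.5 to 202 CPM (1.74 ± 0.24, edgeR adjusted p = 2.24e-05).

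The most abundant feature outside mitochondrial RNA was the repeat-like model Gm10800, at 44185, 46489, 26807 and 44683 CPM. With ribosomal protein genes, mitochondrial RNA and predicted models left out, the highest mean levels were those of Malat1 (a nuclear noncoding RNA), Ptma, Eef2, Tpt1, Hba-a1, Actb, Ppia, Eef1a1, Pabpc1 and Hsp90ab1. Malat1 held 4992, 3244, 6755 and 7047 CPM and was seen in 98% to 100% of wells. Hba-a1, the alpha globin gene, differed in kind, since 1 well of wild type library 1 held 83.4% of that library's Hba-a1 transcripts. Mitochondrially encoded RNA took a median of 13.4% to 16.4% of a well's transcripts, and ribosomal protein genes 9.56% to 11.3%.

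Erythroid-rich wells had almost none of the stem cell markers. There were 2, 3, 4 and 0 of them in the 4 libraries, or 4% (95% exact interval 0.488% to 13.7%), 6.52% (1.37% to 17.9%), 5.88% (1.63% to 14.4%) and 0% (up to 5.36%), intervals that cover counting error only. Their marker shares had a median of 0.0292%, below the lowest remaining well in every library but wild type library 1, where 1 remaining well held no marker transcript. Of the 9 wells 8 were deep, at 3173 to 19921 transcripts against medians of 1524, 1524 and 2805 in the remaining wells, and the other, in wild type library 1, held 1446. By library, their median spike-in counts of 129, 135 and 242 sat beside 137, 119 and 229.

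**Figure D3:**
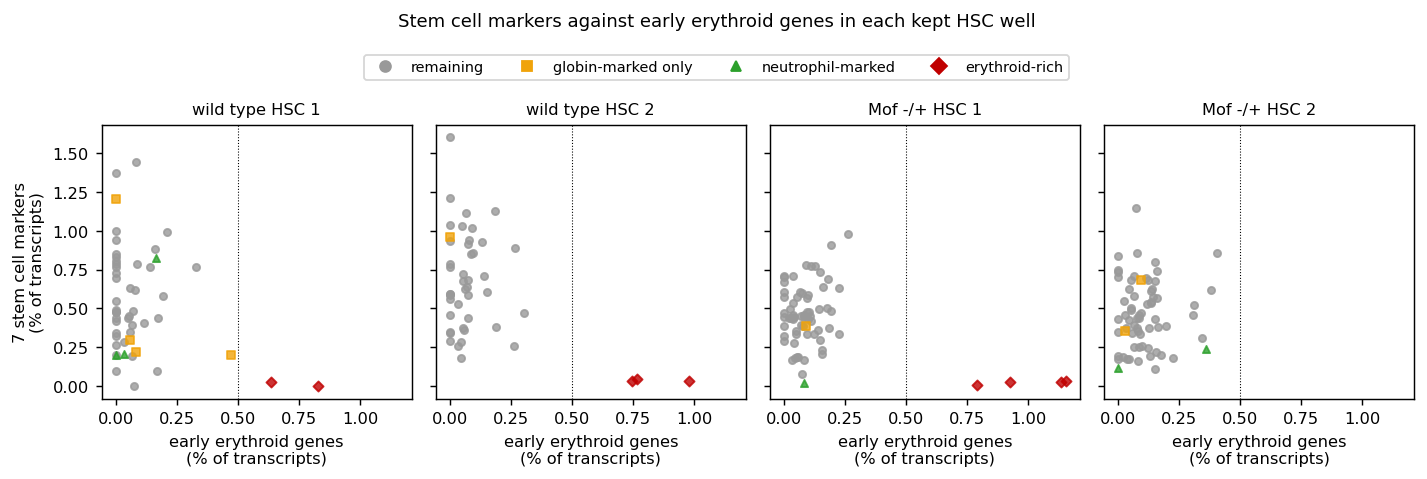
Share of transcripts from the 7 markers against the share from 12 early erythroid genes in each HSC well, by library; the dotted line is the 0.5% limit. Erythroid-rich wells (red) lie at marker shares under 0.05%, and Mof -/+ library 2 has none.

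What these wells expressed was described with no test, since the limit had picked them by early erythroid genes. Rhag, a blood group membrane protein gene outside that list, held 264, 364 and 304 CPM in the erythroid-rich wells of the first 3 libraries and 0, 0 and 5.55 CPM in their remaining wells. Gfi1b, a transcription factor gene of red cell and platelet formation, held 661, 331 and 287 CPM against 0, 27.8 and 16.7 CPM. Genes of G2/M and S phase made up 0.555%, 0.530% and 0.773% and 0.350%, 0.434% and 0.552% of their transcripts, where remaining wells had 0.0326%, 0.0752% and 0.0539% and 0.0846%, 0.0891% and 0.115%. Ribosome biogenesis genes and nuclear genes of the respiratory chain took more of their transcripts, the latter 2.23%, 2% and 2.25% against 0.968%, 0.95% and 0.980%.

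Several genes of the remaining wells were at or near 0 in the erythroid-rich wells. Erg, a transcription factor gene needed for HSC, held no transcript in them and 312, 251 and 461 CPM in remaining wells. Adgrl4, Smarca2, Treml2 and Fmnl1 were also at 0 in all 3 libraries. Pkm stood at 0, 66.2 and 89.5 CPM where remaining wells had 1262, 1769 and 1055 CPM, and Malat1 with Neat1 made up 0.0796% to 0.119% against 0.433% to 0.890%. No barcode was erythroid-rich in both wild type and Mof -/+ libraries of the same number. Mof -/+ library 2 had 0 such wells and the libraries numbered 1 had 2 and 4. The count therefore cannot tell whether barcode position played a part.

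Wells marked by mature neutrophil genes numbered 3, 0, 1 and 2. A well of Mof -/+ library 1, of 4936 transcripts in all, held 76 of the library's 81 transcripts of S100a9, a calcium-binding protein gene of neutrophils, and 46 of 49 of Ngp, a granule protein gene, with 1 marker transcript. Another well of Mof -/+ library 2 held 116 of 133 S100a8, 100 of 117 S100a9 and 76 of 79 Ngp transcripts. In wild type library 1, the 3 wells held 15, 47 and 61 S100a8 transcripts. The first of these kept 10 marker transcripts among 1214, a share of 0.824%. The list call moved with these wells. With all wells 4 of 9 tested mature neutrophil genes rose against plate2, Ngp and Lcn2 among them, where 16.3% of all genes rose. Without the set-aside HSC wells none of 6 rose and 3 fell, where 18.4% of all genes rose and 23.4% fell. HSC wells had been dropped by these same genes while marked plate2 wells stayed, so the second count is no result on the list.

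Globin came in a similar way. A well of wild type library 1 held 783 Hba-a1, 465 Hbb-bs and 127 Hbb-bt transcripts, 41.2% of its 3342 transcripts, while carrying 10 stem cell marker transcripts. Of the 16 globin-marked wells 8 were neither erythroid-rich nor neutrophil-marked. Low globin counts were widespread in wild type library 1, where 85.4% of remaining wells held a late erythroid transcript, with a median of 2 and a highest count of 6. The share was 31%, 61.3% and 38.1% in the other libraries. Of 4 late erythroid genes tested against plate2 1 rose and 1 fell with all wells, where 16.3% of all genes rose and 19.5% fell. Without the set-aside HSC wells none rose and 3 fell, where 18.4% of all genes rose and 23.4% fell. Globin-marked wells had been dropped from HSC and kept in plate2, so the second count is no result on the list.

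Megakaryocyte genes reached 10 transcripts in 7 wells, with 1 to 10 stem cell marker transcripts each. The well with 1 is the neutrophil-marked well of Mof -/+ library 1 described above, which held 22 megakaryocyte transcripts. A Mof -/+ library 1 well of 5911 transcripts held 27 transcripts of Pf4, the platelet factor 4 gene, of the library's 65, with 4 of Gp1bb, 2 of Vwf and 2 of Gp9, beside 10 marker and 34 S phase transcripts. Another well of that library held 19 Pf4 transcripts and 2 marker transcripts. In wild type library 1, 1 well held 10 of the library's 20 Itga2b transcripts, the gene for the platelet integrin alpha subunit CD41. In Mof -/+ library 2 the 2 such wells were led by F2r, the thrombin receptor gene, with 10 and 7 of 27 transcripts. Of 4 megakaryocyte genes tested against plate2, 2 rose and none fell, where 16.3% of all genes rose. Itga2b and Pf4 rose by 0.99 ± 0.30 and 1.29 ± 0.49 (edgeR adjusted p = 0.013 and 0.0442), and F2r and Cd9 had log2 differences of -0.25 ± 0.47 and -0.77 ± 0.58 (edgeR adjusted p = 0.700 and 0.313). Pf4 was caught in only 3, 1, 13 and 12 wells of the HSC libraries. The list made up 0.0423%, 0.0165%, 0.0586% and 0.0465% of HSC transcripts. Wild type HSC library 2 thus lay inside the plate2 range of 0.0143% to 0.0292%.

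A few wells outside the erythroid class carried cell cycle genes. A wild type library 2 well with 14 marker transcripts held 32 G2/M transcripts among 2959, with 9 of Top2a, 5 of Cenpf and 4 of Plk1, and accounted for 59.3% of the G2/M transcripts in that library's remaining wells. The deepest well of Mof -/+ library 2 held 33 S phase transcripts, led by 7 of Mcm6, and 18 marker transcripts among 7009. For Mof -/+ library 1, S phase counts of 34 and 27 stood in 2 wells with 10 marker transcripts each. The neutrophil-marked well of Mof -/+ library 2 with 116 S100a8 transcripts held 20 G2/M transcripts, a share of 0.799%. Of these 6 were Mki67, and the well had 3 marker transcripts. The median remaining well held 1, 1, 2 and 1 S phase transcripts and 0, 0, 1 and 0 G2/M transcripts.

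MHC class II genes, which present antigen to T cells, were caught in 12.2%, 14.3%, 43.5% and 46% of remaining wells. Mof -/+ wells were also deeper, and these shares were not adjusted for depth. The counts were uneven. In Mof -/+ library 1, a well with 8 Ly6a, 8 Hlf and 3 Ifitm1 transcripts held 13 Cd74, 7 H2-Aa and 10 H2-Ab1 transcripts, 34.1% of that library's class II transcripts in remaining wells. In Mof -/+ library 2, a well of 3918 transcripts with 6 Hlf transcripts held 9 of H2-Aa, and a well of 5690 with 15 Ifitm1 transcripts held 8. Cd74 and H2-Ab1 rose against plate2 (2.37 ± 0.62 and 1.85 ± 0.43, edgeR adjusted p = 0.00569 and 0.00252), but Cd74 was caught in only 3, 2, 10 and 16 wells. The class II list made up 0.0121%, 0.0116%, 0.036% and 0.043% of HSC transcripts against 0.00112% to 0.0131% in plate2. Both wild type HSC libraries lay below wild type plate2 library 2, where 1 well held 58.2% of the list's transcripts. They lay above the other plate2 libraries, which held 0.00112% to 0.00416%. The shares were highest in the Mof -/+ HSC libraries. Markers of B cells were seen in 4.76% to 15.9% of remaining wells with at most 3 transcripts in a well, and those of T and NK cells in 0% to 4.84% with at most 2. Genes of monocytes and dendritic cells, which also present antigen, were seen in 29.3%, 21.4%, 53.2% and 47.6% of remaining wells with at most 8 in a well. Their part in the class II result was not tested.

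To rank genes by how much they varied, the spread between wells of a library beyond that of counting was expressed as an extra coefficient of variation (extra CV), computed after scaling to each well's total. An extra CV of 0.5 means a spread of about 50% of the mean over and above counting noise. Of 165 genes with at least 1 transcript per well in all 4 libraries, 31 had an extra CV of at least 0.5 in each. The median over the 165 genes was 0.449, 0.353, 0.439 and 0.396. In the 208 remaining wells 21 of 134 genes did so, 12 of them among the 31. These are descriptions, because wells of a library are not replicates.

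Of the stem cell markers abundant enough for this measure, Hlf had the highest minimum extra CV over the 4 libraries, although Ctla2a exceeded it in wild type library 1. Its extra CV was 0.998, 1.13, 0.90 and 0.82 in all wells and 0.92, 1.15, 0.59 and 0.85 in the remaining wells. Remaining wells had medians of 2, 1, 2 and 2 Hlf transcripts, with 10 of 41, 11 of 42, 9 of 62 and 13 of 63 at 0 and highest wells of 11, 14, 8 and 16. Ifitm1 had extra CVs of 0.88, 0.83, 0.83 and 0.65, which became 0.66, 0.56, 0.45 and 0.62 without the set-aside wells. Ctla2a went from 1.12, 0.92, 0.81 and 0.41 to 1.13, 0.34, 0.58 and 0.42. Of the scarcer markers, Ly6a kept 1.03, 0.87, 1.02 and 0.89 in the remaining wells, whereas Tie1 gave 0, 0.74, 0.56 and 0.65.

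Genes outside the marker list that varied in all 4 libraries, with or without the set-aside wells, included Tuba1a, an alpha tubulin gene, with 1.31, 1.13, 0.75 and 0.84 in the remaining wells. There it ranged from 0 transcripts in 22, 9, 18 and 22 wells to 12, 24, 16 and 15 in the highest. Lcp1, the actin-bundling plastin gene of blood cells, gave 0.75, 0.64, 0.73 and 0.70, and Capns1, a calpain subunit gene, 0.64, 0.61, 0.75 and 0.80. The predicted gene models Gm10800 and Gm26870 gave 1.17, 1.39, 1.13 and 1.11 and 1.37, 1.63, 1.46 and 1.18.

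Some of the 15 genes with the highest extra CV over all wells could not be counted in the remaining wells. Hba-a1, which led with 4.26, 1.46, 2.59 and 4.33, was there below 1 transcript per well in at least 1 library, as were the nuclear transport GTPase gene Ran, the RNA-binding protein gene Ybx1, Tsc22d1 and the galectin gene Lgals9. Falling below that level is not a loss of variation: Lgals9 had 0.75, 0.96, 0.84 and 0.61 in all wells and 1.16, 1.04, 0.68 and 0.61 in the remaining wells. The mitochondrial chaperone gene Hspe1 went from 1.86, 1.43, 0.90 and 0.90 to 0.93, 0.61, 0.46 and 0.94, and Hsp90aa1 from 1.16, 1.04, 0.99 and 0.68 to 0.63, 0.64, 0.31 and 0.66. With wells thinned to 1000 transcripts 6 genes passed, over fewer genes that reach 1 transcript per well.

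**Figure D4:**
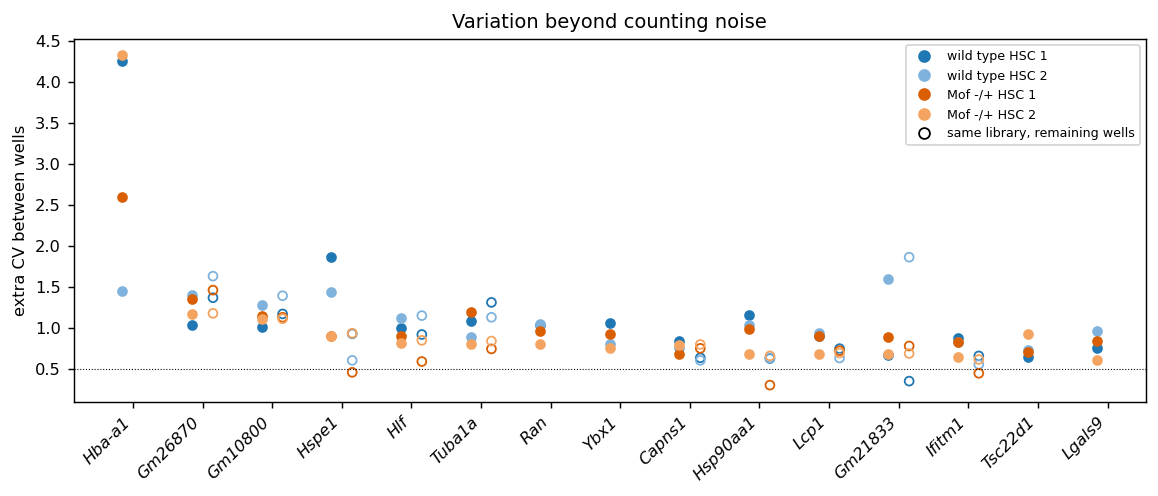
Extra CV of the 15 genes with the highest minimum over the 4 HSC libraries, in all wells (filled) and remaining wells (open); the dotted line marks 0.5. Open points are absent for 5 genes that fall below 1 transcript per well in a library's remaining wells, and Hsp90aa1, Hspe1, Ifitm1 and Gm21833 have an open point under the line.

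Which genes went together was measured by the correlation r over the wells of a library, on counts minus the expectation from well depth. Of 13530 pairs of the 165 genes, 16 had r of at least 0.3 in all 4 libraries and none was at or under -0.3 in all. In the remaining wells 6 of 8911 pairs did so, 5 of them shared with the 16, and 1 pair was opposed. Points of a library share its depth and preparation, and r is given as a description.

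The tightest pair was Gm10800 with Gm26870, at 0.85, 0.83, 0.85 and 0.86 in all wells and 0.88, 0.87, 0.86 and 0.85 in the remaining wells. Gm10800 is a model on chromosome 2 (98666547 to 98667301, minus strand, GRCm38, annotated as protein coding) and Gm26870 a lincRNA model on chromosome 9 (3000282 to 3038313, minus strand). Together with similar models they took a median of 3.18%, 2.49%, 2.11% and 3.41% of a well's transcripts, with single wells as high as 31.4%, 53.2%, 26.7% and 61.2%. The models share sequence, on opposite strands of their transcripts, and reads from such stretches may be hard to assign to 1 locus. Read alignments were not examined, and the part of shared sequence in this r was not tested. Their GENCODE transcripts hold an identical run of 99 bases, in capitals, with 20 bases on each side in lower case; Gm26870 is printed as its reverse complement.
Gm10800: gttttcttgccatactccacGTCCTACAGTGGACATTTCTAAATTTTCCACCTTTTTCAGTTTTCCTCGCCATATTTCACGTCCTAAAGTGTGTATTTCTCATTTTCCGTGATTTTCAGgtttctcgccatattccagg
Gm26870: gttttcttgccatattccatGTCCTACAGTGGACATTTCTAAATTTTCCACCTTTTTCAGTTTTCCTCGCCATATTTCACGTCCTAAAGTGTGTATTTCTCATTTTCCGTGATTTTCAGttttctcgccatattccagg
Gm21833 followed Gm26870 as well, at 0.41, 0.81, 0.55 and 0.51, but the longest run its transcript shares with that of Gm26870 is 10 bases.

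Rps26, a ribosomal protein gene on chromosome 10 (128624534 to 128626747, minus strand), went with its processed pseudogene Rps26-ps1 on chromosome 8 (107439131 to 107439579, minus strand) at 0.52, 0.49, 0.67 and 0.64. Their transcripts share an identical run of 239 bases, all within the Rps26 coding sequence. A stretch of 90 bases, coding bases 31 to 120, are printed in capitals and are the same in both.
Rps26: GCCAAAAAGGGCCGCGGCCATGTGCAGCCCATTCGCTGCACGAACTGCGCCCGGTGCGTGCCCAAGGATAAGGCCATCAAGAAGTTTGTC
Rps26-ps1: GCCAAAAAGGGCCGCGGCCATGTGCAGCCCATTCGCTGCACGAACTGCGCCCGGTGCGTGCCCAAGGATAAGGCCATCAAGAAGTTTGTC
Counts of the pseudogene and its parent are therefore uncertain as separate measurements. How reads were divided between them was not tested. The mitochondrial ribosomal RNAs mt-Rnr1 and mt-Rnr2, neighbours on the mitochondrial genome, gave 0.62, 0.64, 0.67 and 0.56. Of the 6 pairs in the remaining wells 3 were mitochondrial, 2 joined repeat-like models and 1 was Rps26 with its pseudogene.

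Pairs with the chaperone gene Hsp90aa1 were no longer among those counted when the set-aside wells were left out. Hsp90aa1 with Ran gave 0.49, 0.66, 0.69 and 0.42 over all wells, and Hsp90aa1 with Ptma, the prothymosin gene, 0.47, 0.51, 0.51 and 0.33. In the remaining wells Ran was too scarce to count, and Hsp90aa1 with Ptma gave 0.31, 0.21, 0.41 and 0.35, under the limit of 0.3 in wild type library 2 alone. By Spearman's correlation over all wells the lowest r of Hsp90aa1 with Ran was -0.06. Among the lowest pairs over all wells was Ifitm1 with Pa2g4, at -0.29, -0.31, -0.44 and -0.25. In the remaining wells the only pair opposed in all 4 libraries was mt-Atp6 with Gm42418, a model on chromosome 17, at -0.44, -0.36, -0.42 and -0.36.

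The stem cell markers had correlations near 0 when the set-aside wells were left out. Over the 6 markers with at least 0.2 transcripts per well, the mean r was 0.09, 0.13, 0.18 and 0.02 in all wells, against 0.0017 to 0.0066 over all pairs of 1227 genes at that level. It was largest in Mof -/+ library 1 and smallest in Mof -/+ library 2. In the remaining wells it was -0.0022, -0.041, 0.0060 and 0.027. Single pairs did not repeat between libraries: Mecom with Hlf gave 0.42, -0.07, -0.18 and -0.08 in the remaining wells, and Ifitm1 with Mecom 0.027, 0.0018, 0.011 and 0.47. Ifitm1 with Hlf gave -0.12, 0.042, 0.16 and 0.10. Mean counts per remaining well ran from 0.24 to 0.74 for Mecom, and from 3.56 to 4.31 for Ifitm1, the most abundant. At counts this low, an r near 0 cannot tell whether the markers vary independently.

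Of 14 gene lists 4 had a mean r at least 0.05 above that of all pairs in each library, namely repeat-like models, mitochondrially encoded genes, ribosome biogenesis and ribosomal proteins. Repeat-like models gave 0.57, 0.67, 0.48 and 0.63, and mitochondrially encoded genes 0.23, 0.10, 0.31 and 0.12. Ribosome biogenesis gave 0.12, 0.18, 0.33 and 0.13 in all wells and 0.07, 0.04, 0.10 and 0.11 in the remaining wells. Nuclear genes of the respiratory chain went from 0.10, 0.15, 0.20 and 0.02 to 0.013, 0.0016, 0.011 and 0.0053. S phase genes gave 0.02, 0.37, 0.47 and 0.33 over 3 genes, and in the remaining wells fewer than 3 were abundant enough. Only the first 2 of the 4 lists passed in the remaining wells. Immediate early genes, measured with 3 members, did not pass in either set of wells, at -0.11, 0.11, 0.08 and 0.05 in the remaining wells.

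**Figure D5:**
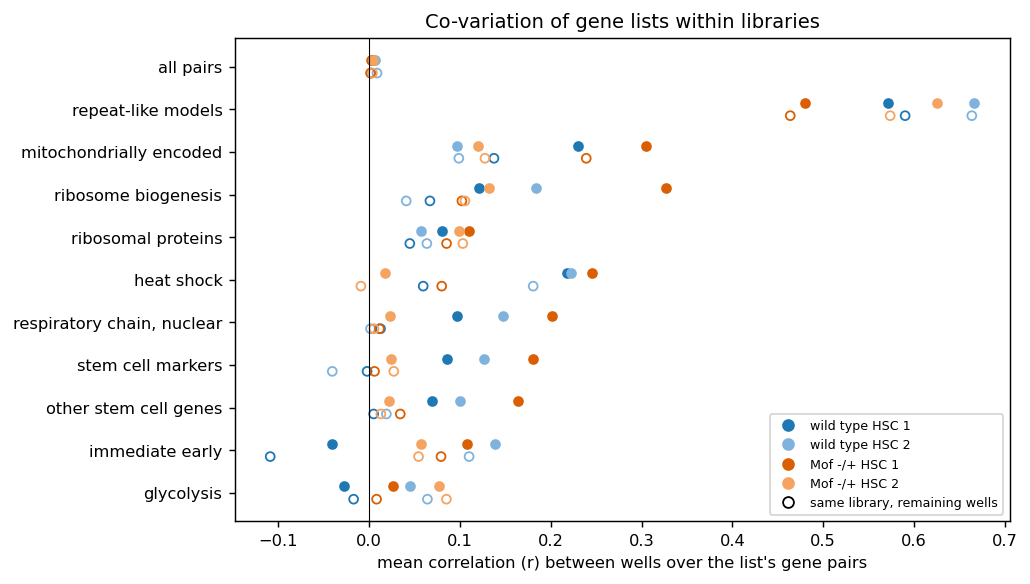
Mean r over the gene pairs of each list, by HSC library, in all wells (filled) and remaining wells (open). Open points of the markers, other stem cell genes and nuclear respiratory chain genes lie between -0.05 and 0.05, whereas repeat-like models stay above 0.4.

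Between genotypes little passed in HSC. Of the 6678 genes 1 (0.015%) was higher in Mof -/+ than in wild type wells, Gm17541, a predicted model at 212 and 107 CPM in wild type and 876 and 665 CPM in Mof -/+ libraries (log2 difference 2.21 ± 0.36, edgeR adjusted p = 0.036), and 717 genes had an unadjusted p under 0.05. No gene was lower. The count did not hold under other choices. It was 0 with only the 4 HSC libraries and 0 without either of the Mof -/+ plate2 libraries, and without wild type HSC library 2 no gene was higher and 6 were lower. It was 22 without wild type HSC library 1, 48 without Mof -/+ HSC library 1, 44 without the low-count filter and 31 with DESeq2. Among the 7 markers none passed and 4 had a positive log2 difference, with a median of 0.07. No gene was called for a genotype effect that differed between HSC and plate2 libraries (edgeR, 6678 tested, smallest adjusted p = 0.239, 616 with an unadjusted p under 0.05). With 2 libraries in each group, that does not show that the effects were the same.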

How the data were processed

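The deposited values are expected counts, in which the authors' whole tally k of molecular identifiers is corrected for collisions in a space of 4096 identifiers (largest deviation from that formula 3.64e-12), without scaling for depth. Per the submitters' processing notes, reads were aligned to mm10 with BWA 0.6.2-r126; the labels state neither annotation nor counting tool. GENCODE vM21 (GRCm38) gave positions and transcript sequences and matched 95.6% of 19879 names. No doublet caller was run on these sorted wells. Rounded counts were summed over kept wells per library, and 4 groups of 2 libraries were fitted with edgeR 4.0.16 in R 4.3.3 (TMM, filterByExpr, quasi-likelihood, two-sided, Benjamini-Hochberg, adjusted p under 0.05). CPM carry no TMM factor. The scripts were tested on simulated data. Python 3.11.15, numpy 2.4.6, pandas 2.3.3, scipy 1.17.1 and matplotlib 3.10.9 served for the rest. Extra CV is the square root of the sum of squared deviations minus the expectation, over the sum of squared expectations. Correlations used Pearson residuals.

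Named were Kat8, the 7 markers, the 10 genes of highest CPM, the 10 largest separated rises and falls of at least 20 CPM that passed, up to 4 of the most abundant members per list, the 15 genes of highest extra CV and the leading pairs. Wells, and genes named for single wells or for erythroid-rich wells, were chosen after their values were seen. Some genes that this rule names are not reported here. The members and lists were chosen with earlier results of these data known, so counts over lists are descriptions and no independent support. Alternatives were RLE factors, DESeq2 1.42.0, no low-count filter, 2000 transcripts per well, all barcodes of a file, thinning (seed 1), other well totals, Spearman's correlation, subsets of wells, and each library left out.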

Additional observations from a re-analysis of the deposited data

Results flagged for a closer look

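Each HSC file also lists 96 barcodes outside the library's own wells, which were not used above. Of all transcripts they held 13.6% and 13.1% in wild type and 8.12% and 8.89% in Mof -/+ libraries. In Mof -/+ library 2, 1 of these barcodes reached 1099 transcripts, and the highest in the other libraries stayed under 1000. The part of this signal in the other results was not tested beyond the sum over all barcodes, which gave 2401 genes for HSC against plate2 in place of 2388.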

How the results depend on the processing

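Of 2388 genes called between HSC and plate2 libraries, 1605 to 2694 were called under the other settings, leaving out a library gave 1650 to 2365, and thinning to 1000 transcripts gave 428 of fewer genes tested. For the markers and the genes of widest change, 25 in all, the direction was kept in all 384 comparisons with an alternative, and 10 lost the call, 7 of them for Procr; other named genes were not run through the alternatives. Genotype calls in HSC, 1 at first, were 44 without the low-count filter, 17 at 2000 transcripts per well, 9 after thinning, 2 without neutrophil-marked wells, 3 without the set-aside HSC wells, 0 with only the 4 HSC libraries (252 at an unadjusted p under 0.05), 31 with DESeq2 and 0 to 48 without 1 library. With replicate number as a block it was 5, and the same-numbered libraries deviated with r of -0.09, so the numbers were not taken as pairs. The depth difference between HSC and plate2 was -8089 and stayed from -8536 to -7365 without 1 library. The difference in genes per well, 8, ran from -1.88 to 16.8. Variable genes, 31, became 6 after thinning, 19 without the erythroid-rich wells and 36 to 51 without 1 library. Co-varying pairs, 16, became 7 with mitochondrial and repeat-like genes out of the well total, 4 after thinning, 59 at 2000 transcripts per well, 6 without wells of 10 neutrophil or late erythroid transcripts, 6 without the set-aside wells, 7 without the erythroid-rich wells, 6 with Spearman's correlation and 20 to 103 without 1 library, 103 being without Mof -/+ library 2. Lists above all pairs, 4, became 1, 2, 7, 2, 2, 3 and 2 under the same settings, and 4 to 11 without 1 library. Averaged over libraries, the mean r of the markers, 0.10, turned to -0.00338 after thinning and -0.00241 without the set-aside wells, that of cell cycle brakes and drivers ran from -0.0853 to 0.0174 without 1 library, turning without wild type library 1, and the lowest r of Hsp90aa1 with Ran turned to -0.0613 with Spearman's correlation. The settings on set-aside and erythroid-rich wells were added after seeing the data. Depth limits every value on scarce genes.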
